A study of Mus musculus with 8 samples.

Results

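The genes described here are 40 collagens and 11 other genes that fibroblasts use to build extracellular matrix, 51 of the 27575 genes on the arrays. They were taken by name from the array's annotation, as every gene symbol written Col, a number, a and a number, together with Fn1, Mgp, Sparc, Lum, Dcn, Bgn, Postn, Fbn1, Fstl1, Ccdc80 and Vim. The rule uses names only, but the members were chosen with earlier results of these data known. They have 98 of the 41174 probes, and each gene was represented by the brighter or brightest of its probes. RNA was measured on 8 two-colour arrays, where 2 RNAs share an array and each spot gives the ratio between them. In 4 arrays, small intestinal epithelium of Ah-Cre/Ascl2floxed/floxed mice (deleted) was set against that of Ah-Cre/Ascl2floxed/wt mice (control) at 3 and 5 days after induction, with 1 pair of RNAs per day. In the other 4, GFPhi cells were set against GFPlo cells from the intestine of Lgr5-EGFP-ires-CreERT2 mice, in 2 sorts that each pooled 3 mice. Ah-Cre drives the recombinase from a promoter that responds to xenobiotics, both deletion genotypes carry it, and the control still has 1 floxed and 1 wild-type allele of Ascl2. The dyes of each RNA pair were exchanged between its 2 arrays, which together count as 1 replicate. The sources used here do not give how many animals stand behind each deletion RNA, so p-values measure the spread between these RNA pairs, which may be technical.

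Collagens are triple-helical proteins of the space between cells. Fibril-forming collagens such as types I, III and V are spun by fibroblasts into the fibres of connective tissue, whereas type IV collagens form the sheet-like network of basement membranes on which epithelium rests. In the intestine the fibrillar collagens, decorin and related matrix genes are known as products of the stroma below the epithelium and of the serosa, not of epithelial cells. Whether an RNA holds fewer cells of a type or less RNA per cell cannot be told apart on these arrays.

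Ascl2 itself, the deleted transcription factor, was lower in deleted RNA on all 4 arrays, by log2 ratios of -1.36 and -1.30 (day 3) and -1.34 and -1.29 (day 5), which checks the labels. The scanner marked 55.0% to 66.9% of spots in a channel as well above background in the deletion and 35.5% to 44.6% in the sorts. On day 3 the probe was above background on both arrays in 31 of 51 members in deleted RNA and 35 in control RNA. These are 60.8% and 68.6%, against 59.8% and 61.8% of all 27575 genes. On day 5 the counts were 31 in deleted RNA and 22 in control RNA, or 60.8% and 43.1%, against 58.3% and 56.1%. In sort 1 they were 11 members in GFPhi and 9 in GFPlo, or 21.6% and 17.6%, against 38.5% and 36.5% of all genes. In sort 2 they were 7 in GFPhi and 9 in GFPlo, or 13.7% and 17.6%, against 41% and 43.1%. A gene is called measured on a day where its probe was above background on both arrays in at least 1 of the 2 RNAs. The 6 members Col8a2, Col9a3, Col10a1, Col12a1, Col24a1 and Col28a1 were above background in neither RNA on any deletion array.

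Few matrix genes differed from control on day 3, and many were higher on day 5, by up to 34.6-fold. On day 5, 19 of the 51 members were at least 1.5-fold higher in deleted RNA on both arrays, against 1.59% of all 27575 genes, and 0 were at least 1.5-fold lower, against 1.17%. Of the 32 members measured that day the 19 make up 59.4%, against 2.68% of the 16404 genes measured, of which 1.98% were lower. Because the members were chosen with earlier results of these data known, these shares are descriptions and not a test. Of genes other than collagens, 6 of 7 glycoproteins, 2 of 3 proteoglycans and Vim were higher. Of collagens, 6 of 11 fibril-forming, 2 of 4 beaded-filament, 1 of 9 fibril-associated and 1 of 3 basement membrane zone collagens were. The 9 network-forming and 4 transmembrane collagens gave 0. Of the 22 members whose control RNA was above background on both arrays, and which did not need to be high in deleted RNA to be counted, 11 were higher, against 2.34% of such genes, and of the other 10 measured 8 were higher, against 8.24%. At least 2-fold higher on both arrays were 15 members, against 1.17% of genes measured, and 0 were at least 2-fold lower, against 0.689%. The median log2 ratio was 1.32 over the 32 members measured and -0.0047 over all genes measured, and 0.14 over all 51 members. These ratios have no replicate RNA pair within a day, so no test of either day alone was made.

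On day 3, 36 members were measured. At least 1.5-fold lower in deleted RNA on both arrays were 3 of them, Col3a1, Col1a1 and Col1a2, against 6.87% of the 17319 genes measured, and 1 was higher, Fn1, against 5.35%. These shares are near those of all genes. Of the 31 members whose deleted RNA was above background on both arrays the same 3 were lower, against 7.16% of such genes, and at 2-fold 0 members were higher or lower, against 1.6% and 1.59%. The members' median log2 ratio was -0.053, against 0.0029 over all genes measured.

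Col3a1, Col1a1 and Col1a2 encode the chains of type III and type I collagen, the main fibres of intestinal connective tissue. Col3a1 had normalised intensities of 15866 and 13586 on the 2 day 5 arrays in deleted RNA, against 394 and 456 in control RNA. On day 3 it had 602 and 622 in deleted RNA, against 1388 and 1192 in control RNA. The deleted RNA of day 5 stood above the other 3 RNAs, and that of day 3 stood below its own control, with no overlap on either day. Day 3 log2 ratios were -1.20 and -0.94, and those of day 5 were 5.33 and 4.90, which means 34.6-fold more in deleted RNA on day 5.

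Col1a1 read 6214 and 5658 in deleted RNA on day 5, against 201 and 222 in control RNA, and on day 3 it read 262 and 248 in deleted RNA, against 482 and 485 in control RNA. Col1a2 read 8662 and 8504 in deleted RNA on day 5, against 317 and 354 in control RNA, and on day 3 it read 243 and 235 in deleted RNA, against 412 and 386 in control RNA. Both genes thus had the pattern of Col3a1, lower than control on both day 3 arrays and higher on both day 5 arrays. The Col1a1 log2 ratios stood at -0.88 and -0.97 on day 3 and at 4.95 and 4.67 on day 5, or 28.0-fold on day 5. Those of Col1a2 stood at -0.76 and -0.72 on day 3 and at 4.77 and 4.58 on day 5, or 25.6-fold. Among the 16404 genes measured on day 5, ordered by ratio, Col3a1 was number 4, Col1a1 number 5, Col1a2 number 6 and Dcn number 7 from the top.

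**Figure D1:**
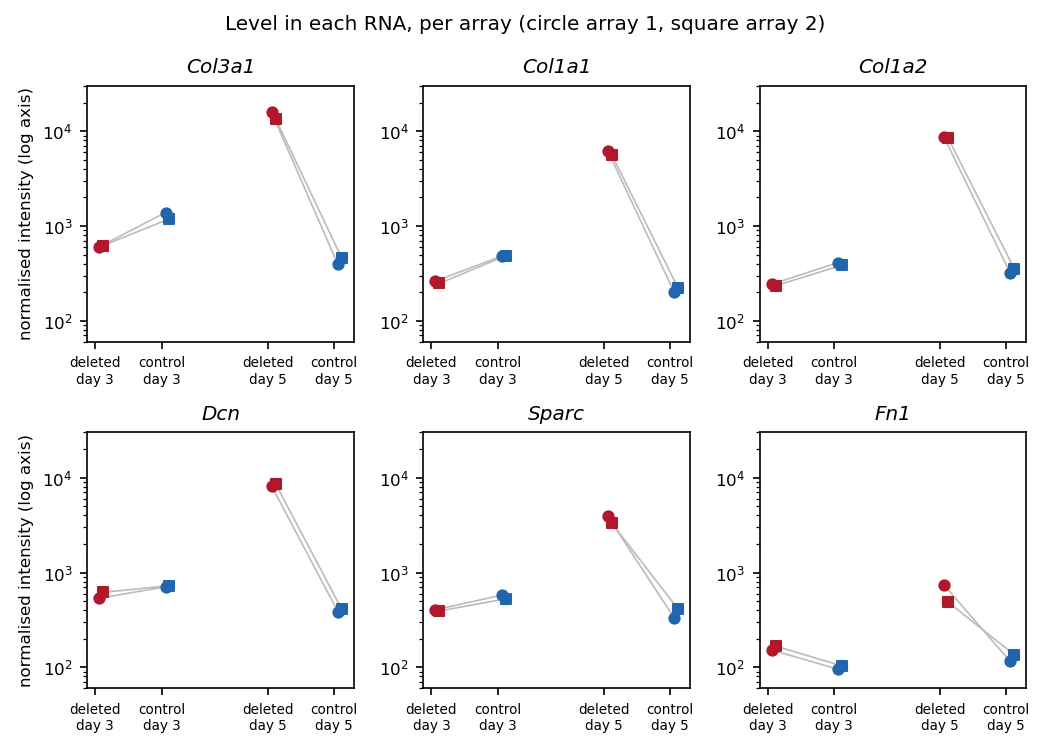
Normalised intensity on a log axis of 6 members in deleted RNA (red) and control RNA (blue) on each day, 1 point per array and a line joining the 2 RNAs of an array. Col3a1, Col1a1, Col1a2, Dcn and Sparc sit below control in deleted RNA on both day 3 arrays and far above it on both day 5 arrays, while Fn1 sits above control on both days.

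The Col1a1 probe was spotted 10 times on each array, which shows the error within an array. The SD of the log2 ratio over the spots kept was between 0.055 and 0.13 on the 4 deletion arrays, so both the lower ratios of day 3 and the higher ones of day 5 exceeded it. The Col3a1 probe lies on chromosome 1 from 45293290 to 45293349, the Col1a1 probe on chromosome 11 from 94767851 to 94767910, and the Col1a2 probe on chromosome 6 from 4490619 to 4490678, all on the plus strand in mouse build mm8. An exon annotation of that build was not used here. Further probes of these genes were dim. A dimmer Col1a1 probe had a mean log2 ratio of 1.10 on day 5, while the remaining Col1a1 probe, the other Col1a2 probe and the other 2 Col3a1 probes were not above background on day 5 in both arrays of either RNA.

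The bases before the start of transcription are shown for the 3 members with the highest day 5 ratio among the 38 that RefSeq's promoter table of build GRCm38.p6 holds, because these genes were high together on day 5 and Ascl2 is a basic helix-loop-helix factor, a class that binds the letters CANNTG. Each run is the 250 bases upstream of the start, 5′ to 3′ on the strand of the gene, with every CANNTG in capitals. They lie at chr1:45311288-45311537 on the plus strand for Col3a1, chr6:4505368-4505617 on the plus strand for Col1a2 and chr11:55420081-55420330 on the minus strand for Sparc.
Col3a1: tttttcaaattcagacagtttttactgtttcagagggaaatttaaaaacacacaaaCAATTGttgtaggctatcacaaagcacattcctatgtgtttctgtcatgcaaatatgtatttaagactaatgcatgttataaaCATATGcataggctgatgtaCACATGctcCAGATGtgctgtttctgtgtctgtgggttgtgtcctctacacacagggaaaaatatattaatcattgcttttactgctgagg
Col1a2: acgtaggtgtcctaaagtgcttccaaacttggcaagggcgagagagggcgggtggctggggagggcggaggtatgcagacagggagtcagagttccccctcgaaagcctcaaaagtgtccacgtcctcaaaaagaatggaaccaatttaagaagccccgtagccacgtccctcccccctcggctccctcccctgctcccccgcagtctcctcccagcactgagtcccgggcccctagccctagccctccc
Sparc: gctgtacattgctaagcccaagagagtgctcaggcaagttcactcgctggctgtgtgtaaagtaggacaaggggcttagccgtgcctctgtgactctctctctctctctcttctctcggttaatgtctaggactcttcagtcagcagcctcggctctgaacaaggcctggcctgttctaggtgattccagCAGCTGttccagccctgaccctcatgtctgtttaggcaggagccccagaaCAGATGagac
CANNTG, which reads the same on both strands, occurs 4 times for Col3a1, 0 times for Col1a2 and 2 times for Sparc. Over the 27025 genes of the table, 69.3% hold it in this window, against 52.6% of the 38 members with an entry. Col3a1 holds TATAAA once and Col1a2 holds CCAAT once, both searched on both strands, and these letters occur in 14.3% and 37.5% of all genes' windows. Such matches are descriptions of letters and do not say that a factor binds there.

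Decorin and lumican are small leucine-rich proteoglycans that sit on collagen fibrils and set their spacing. Dcn read 8214 and 8633 in deleted RNA on day 5, against 387 and 408 in control RNA, and on day 3 it read 536 and 618 in deleted RNA, against 706 and 725 in control RNA. Its log2 ratios stood at -0.40 and -0.23 on day 3 and at 4.41 and 4.40 on day 5, where the level was 21.2-fold that of control. Lum, its neighbour on chromosome 10, moved less with the background correction used here. Lum had log2 ratios of 0.10 and 0.00061 on day 3 and 1.67 and 1.17 on day 5. Its day 5 ratio exceeded that of day 3 by 1.37, against 4.72 for Dcn. Without background subtraction these differences were 1.64 and 4.81. On the scanner's processed ratio they were 3.43 and 5.19, so the size for Lum depended on the processing. Bgn, the other gene of this kind, was not measured on day 5 and had 0.051 as its mean log2 ratio on day 3.

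Of the 7 matrix glycoproteins, 6 were measured on day 5. All 6 were at least 1.5-fold higher in deleted RNA on both arrays, against 2.68% of all genes measured. Of these, Fn1, Fbn1 and Fstl1 counted as measured only through deleted RNA, where they are high. Among genes whose control RNA was not above background on both arrays, 8.24% were higher. Ccdc80, a secreted matrix protein, had log2 ratios of 0.03 and -0.13 on day 3 and 3.99 and 3.24 on day 5, a 12.2-fold level on day 5. Sparc, a collagen-binding protein of connective tissue, had -0.51 and -0.43 on day 3 and 3.56 and 3.01 on day 5, and its second probe, also measured, had means of -0.67 and 4.24. Mgp, an inhibitor of calcification, had 0.16 and 0.39 on day 3 and 3.53 and 2.84 on day 5. All 3 genes were within 1.5-fold of control on both day 3 arrays and 9.09-fold to 12.2-fold higher on day 5.

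Fstl1, a secreted follistatin-like protein of mesenchyme, had log2 ratios of -0.61 and -0.35 on day 3 and 3.01 and 2.45 on day 5. Fbn1, the backbone of microfibrils, had -0.19 and -0.01 on day 3, where it was not measured, and 1.97 and 0.83 on day 5. Postn was not measured on either day. Fn1 encodes fibronectin, which collagen fibrils assemble on, and it was the one member higher in deleted RNA on all deletion arrays by 1.5-fold or more. Its log2 ratios stood at 0.67 and 0.69 on day 3 and at 2.68 and 1.84 on day 5. In control RNA of day 3 it was not above background on either array, so the level there is given only as at least 1.60-fold higher in deleted RNA. Such a bound takes as the control's level its own signal or the lowest signal above background, whichever is higher. For Fn1 on day 3 that was its own signal. A second Fn1 probe, also measured, had means of only 0.0039 on day 3 and 0.45 on day 5. Without background subtraction Fn1 was no longer 1.5-fold higher on both day 3 arrays.

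The remaining fibril-forming collagens fell into 2 groups on day 5. Type V collagen, which sits inside type I fibrils and regulates their diameter, was higher in all of its 3 chains. Over all genes measured 2.68% were higher, and Col5a1 and Col5a2 counted as measured only through deleted RNA. Col5a1 had log2 ratios of 3.08 and 2.31 on day 5 and -0.21 and -0.32 on day 3, and Col5a3 had 2.44 and 1.91 on day 5 and -0.29 and -0.26 on day 3. Col5a2 had 1.36 and 0.79 on day 5, and since its control RNA was not above background on either array the level was at least 2.04-fold higher. A second Col5a1 probe, also measured, had a mean of only -0.05 on day 5, so the probes of that gene disagreed. In contrast Col2a1, Col11a2 and Col27a1, which cartilage uses, had day 5 means of -0.16, -0.0016 and -0.15, and Col11a1 and Col24a1 were not measured. A second Col2a1 probe with 10 spots, measured on day 5, had a mean of 0.59 there.

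Type VI collagen forms beaded filaments around cells. On day 5, 2 of its 3 chains measured were higher, against 2.68% of all genes measured. Both count as measured only through deleted RNA, where they are high. Among genes whose control RNA was not above background on both arrays, 8.24% were higher. Col6a3 had log2 ratios of 1.86 and 1.24 and Col6a1 had 1.60 and 0.88, which give at least 2.73-fold and at least 2.35-fold, because control RNA was not above background on either array. Col6a2 had 0.61 and 0.25, and 1 array was below the 1.5-fold limit. Among the fibril-associated collagens, which coat fibrils and link them to other matrix, Col16a1 was higher, with 1.26 and 0.96 on day 5 and -0.15 and -0.44 on day 3. Col14a1 had 0.65 and 0.31 on day 5, and Col9a2 and Col22a1 had means of -0.07 and -0.00039.

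With the background correction used here, the type IV and other network-forming collagens measured on day 5 were near their control level. Of the 9 network-forming collagens, 4 were measured on day 5 and 0 of them were called. Over all genes measured 2.68% were called higher and 1.98% lower, so 0 of 4 is near these shares. Col4a1 had log2 ratios of 0.32 and 0.26, Col4a4 had -0.08 and -0.30, Col4a6 had -0.07 and -0.08, and Col8a1 had 0.11 and 0.02. Dimmer probes of Col4a1 and Col4a6, also measured, had higher means of 0.54 and 0.62. Col18a1, a basement membrane collagen that is the source of endostatin, was higher with 1.60 and 1.24, and its second probe, also measured, had a mean of 0.76. Col7a1, the anchoring fibril collagen, had 0.21 and 0.13. Col25a1 was the one transmembrane collagen measured on day 5 and had -0.26 and 0.04. The other members not measured that day were Col4a2, Col4a3, Col4a5, Col9a1, Col13a1, Col15a1, Col17a1, Col19a1, Col20a1 and Col23a1, with means between -0.08 and 0.43.

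**Figure D2:**
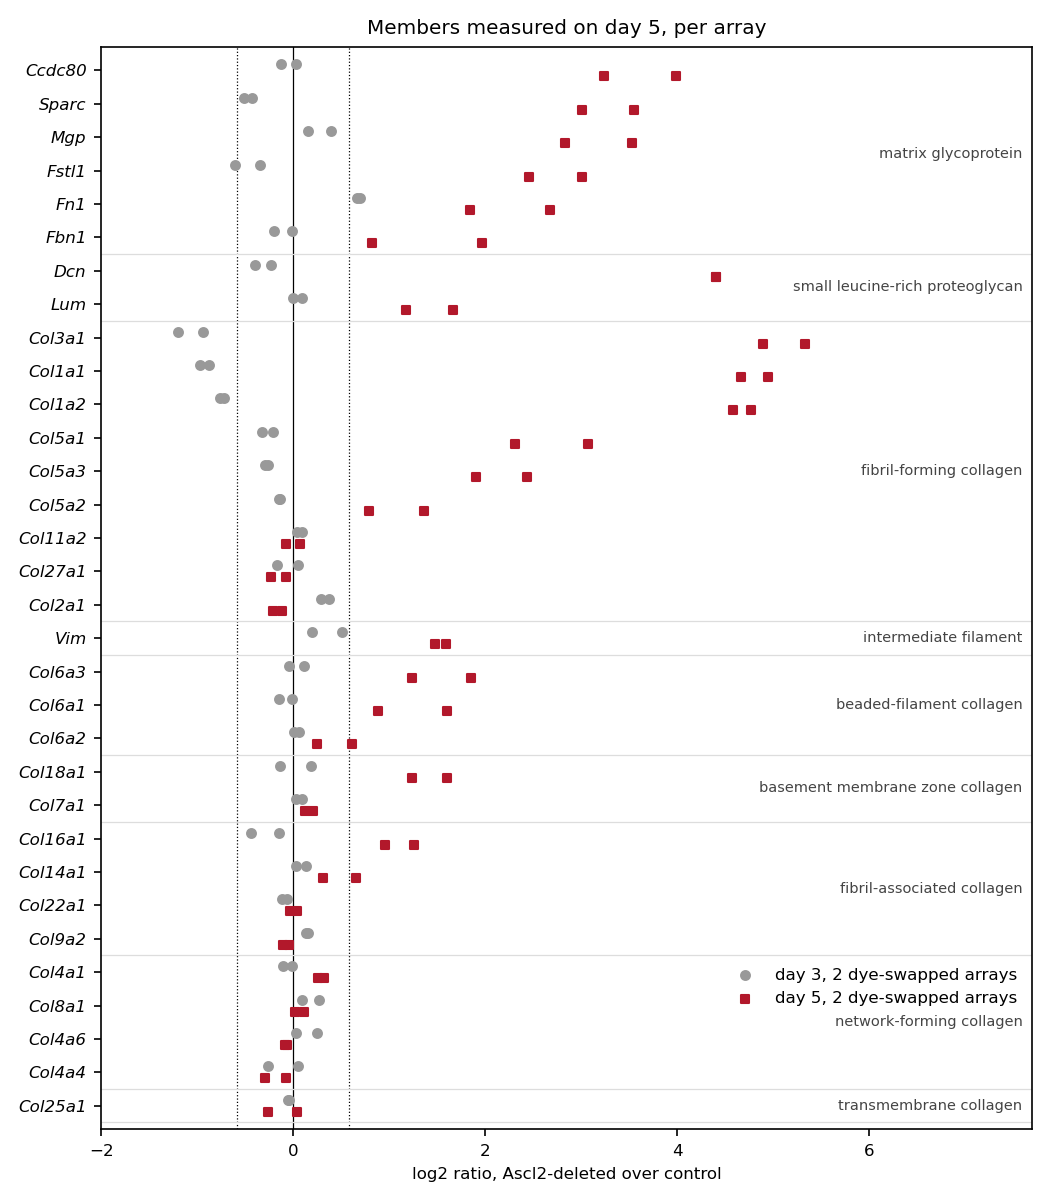
Log2 ratio of deleted over control for the 32 members measured on day 5, grouped by role, with 2 grey points for the day 3 arrays and 2 red squares for the day 5 arrays of each gene. Dotted lines mark 1.5-fold. Glycoproteins, proteoglycans and types I, III and V collagen lie right of the upper dotted line on both day 5 arrays. Network-forming collagens lie between the dotted lines on both days with the background correction used here.

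The size of the ratios differed between the 2 day 5 arrays. The median absolute difference between their log2 ratios was 0.324 over the 32 members measured, against 0.133 over all genes measured, and the largest was 1.15 for Fbn1. On day 3 that median was 0.0955 over 36 members. The mean ratio of the 32 members was 1.74 on the first array of day 5 and 1.41 on the second. There are 7 pairs of members next to each other in RefSeq's gene order. Among the pairs with both genes measured on day 5, Col3a1 and Col5a2 had day 5 means of 5.11 and 1.08, Dcn and Lum had 4.41 and 1.42, and Col6a1 and Col6a2 had 1.24 and 0.43. The gaps within these pairs depended on the processing. On the scanner's processed ratio the gaps of Col3a1 and Col5a2 and of Dcn and Lum were smaller, and that of Col6a1 and Col6a2 was larger.

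The difference between the days was tested with limma over all 15891 genes above background on all deletion arrays in deleted or control RNA, of which 29 are members. Day 5 ratios exceeded day 3 ratios at an adjusted p under 0.05 for 16 of the 29 members, against 15.5% of all genes, and 0 members went the other way, against 12.3%. Of the 16, Fn1, Lum, Fstl1, Col5a1, Col6a1 and Col6a3 were tested only through deleted RNA, where they are high, because control RNA was not above background on every array. Where both RNAs had to be above background on every array, 10 of 20 members were higher, against 15.3% of such genes. In that set 0 were lower, against 12.5%. The 10 were Col3a1, Col1a1, Col1a2, Col5a3, Col16a1, Col18a1, Dcn, Ccdc80, Mgp and Sparc, with no beaded-filament collagen among them. The 8 largest differences in log2 ratio were those of Col3a1 at 6.19 (SE 0.11, adjusted p = 0.00076), Col1a1 at 5.73, Col1a2 at 5.42, Dcn at 4.72, Sparc at 3.75, Ccdc80 at 3.66, Fstl1 at 3.21 and Col5a1 at 2.96. The other 8 that passed were Mgp, Col5a3, Fn1, Col6a3, Col16a1, Col18a1, Lum and Col6a1. Vim, at 1.19 (SE 0.60, limma adjusted p = 0.212), and Col2a1, at -0.50 (SE 0.13, limma adjusted p = 0.0561), did not pass. By role these 16 were 5 of 8 fibril-forming collagens tested, 5 of 5 glycoproteins, 2 of 2 proteoglycans and 2 of 3 beaded-filament collagens. The rest were 1 of 3 fibril-associated collagens, 1 of 2 basement membrane zone collagens and 0 of 4 network-forming collagens. Without background subtraction Vim, Col6a2 and the network-forming Col4a1 passed as well.

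That test draws its spread from the 2 sorts alone, because each day has 1 RNA pair. Of the 16 members that passed, 13 were too dim to be tested in the sorts. Members tested in the deletion but too dim to be tested in the sorts varied little there. Their median SD between the sorts was 0.0293, against 0.0811 over the genes tested in the sorts. With each array centred on its median in place of loess, and with the scanner's processed log ratio, 0 members passed although the Col3a1 difference was 6.22 and 6.72. The order of sizes also changed on the processed ratio, where Fstl1 was at 5.71, Dcn at 5.19 and Col6a3 at 5.05.

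**Figure D3:**
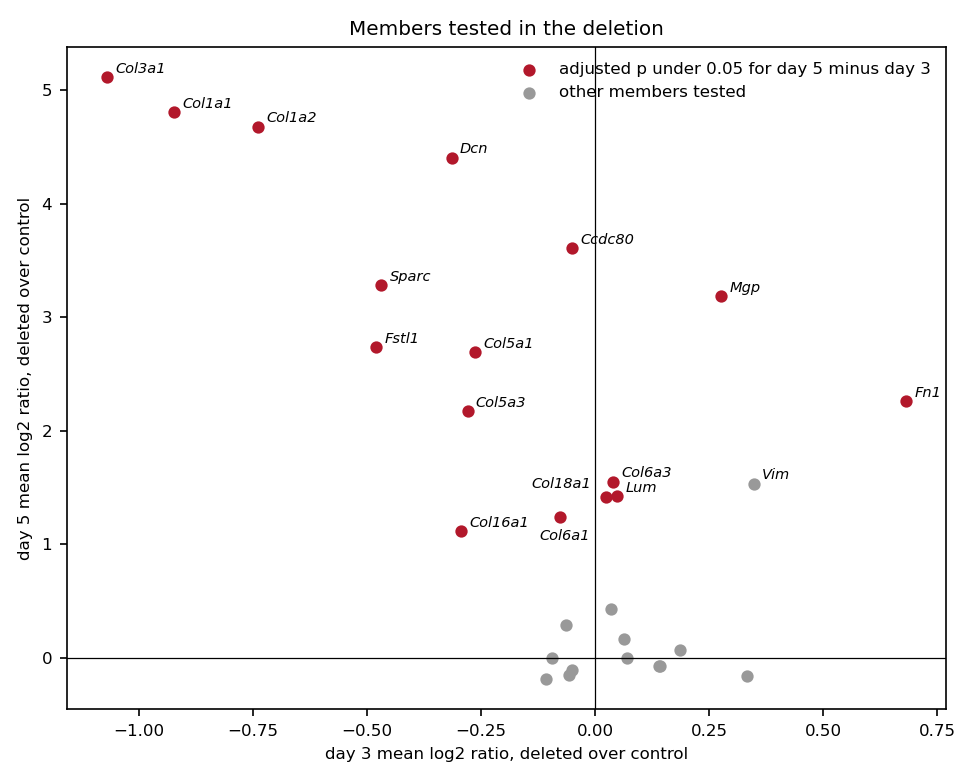
Mean log2 ratio of deleted over control on day 3 (x axis) and day 5 (y axis) for the 29 members tested, in red where the difference between the days had an adjusted p under 0.05. The genes lowest on day 3, Col3a1, Col1a1 and Col1a2, are the highest on day 5, and Fn1 is highest on day 3.

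Of the 29 members tested, 11 were lower than control on both day 3 arrays and higher on both day 5 arrays, against 13.3% of genes. With at least 1.5-fold on each side the count was 3, Col3a1, Col1a1 and Col1a2, against 0.327% of genes. Averaged over the days, no gene of the 15891 passed the limma test at an adjusted p under 0.05 (0% higher and 0% lower), and at an unadjusted p under 0.05 were 1 member higher, against 4.91% of genes, and 0 lower, against 4.74%. Col3a1 averaged 2.02 ± 4.37 (SD, n = 2 RNA pairs; limma adjusted p = 0.623), an SD that holds the difference between the days. One sign on all 4 deletion arrays was seen in 7 members, all higher, against 12.5% of genes, and in 0 members lower, against 13.3%. These 7 were Mgp with a mean of 1.73, Fn1 with 1.47, Vim with 0.94, Lum with 0.73, Col6a2 with 0.23, Col8a1 with 0.13 and Col7a1 with 0.11, and the lowest adjusted p among them was 0.476, for Fn1.

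Vim encodes vimentin, an intermediate filament protein of fibroblasts, blood cells and endothelium. It read 7077 and 6310 in deleted RNA on day 5, against 2353 and 2266 in control RNA, and on day 3 it read 3082 and 3322 in deleted RNA, against 2699 and 2342 in control RNA. It was thus higher on both days, without overlap, and by 2.89-fold on day 5.

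Few members were above background in sorted Lgr5-GFP cells. Only 7 members were above background on every array of GFPhi or of GFPlo, namely Col1a2, Col2a1, Col4a4, Col4a6, Col16a1, Fstl1 and Vim, and 0 of them passed the limma test at an adjusted p under 0.05, as did 0 of all 10435 genes tested (0% higher and 0% lower). At an unadjusted p under 0.05 were 0 members, against 2.52% of genes higher and 2.54% lower. Col3a1 read 193 and 188 in GFPhi, against 200 and 197 in GFPlo, in sort 1, and between 194 and 195 in both populations in sort 2, none of it above background on any array. Col1a1 was likewise not above background, and its log2 ratios were 0.02 and -0.04 for sort 1 and near 0 for sort 2.

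Vim was lower in GFPhi on all 4 arrays. It read 206 and 206 in GFPhi, against 583 and 524 in GFPlo, in sort 1, and 258 and 274 in GFPhi, against 304 and 308 in GFPlo, in sort 2. Its log2 ratio averaged -0.81 ± 0.87 (SD, n = 2 sorts; limma adjusted p near 1, as for every member tested). Fstl1 had the opposite sign, above 0 on each of the 4 arrays, with 0.78 and 0.66 in sort 1 and 0.24 and 0.09 in sort 2, and Col16a1 was also above 0, with 0.22 and 0.17 in sort 1 and 0.03 and 0.02 in sort 2. One sign on all 4 sort arrays was thus seen in 2 of 7 members higher, against 16.5% of genes, and in 1 lower, against 17.2%. Ratios of sort 2 lay closer to 0 with the background correction than without it. Their median absolute deviation over genes tested was 0.0640 with it and 0.195 without subtraction, when sort 1 had 0.196 and 0.173. Without subtraction Vim was at -1.21 in sort 1 and -1.33 in sort 2, and Fstl1 at 0.58 and 0.99, and on the scanner's processed ratios Vim was at -2.33 and -3.47 and Fstl1 at 1.36 and 2.01.

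**Figure D4:**
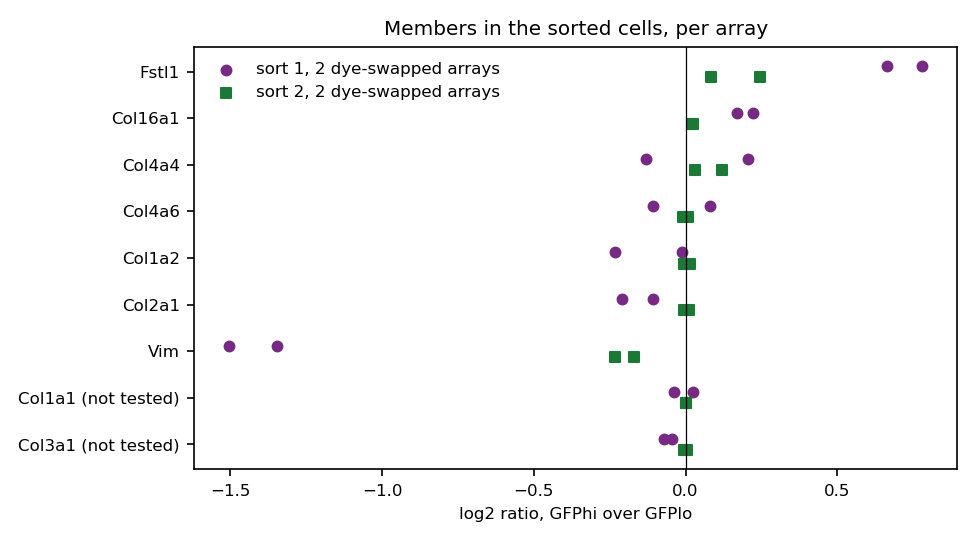
Log2 ratio of GFPhi over GFPlo for the 7 members tested in the sorts and for Col1a1 and Col3a1, with 2 purple circles for sort 1 and 2 green squares for sort 2. Vim lies left of 0 and Fstl1 and Col16a1 right of 0 on all 4 arrays, and sort 2 lies nearer 0 than sort 1.

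Of 18 genes for collagen synthesis and crosslinking tested, 9 had higher ratios on day 5 than on day 3 past the limma test and 0 lower, against 15.5% higher and 12.3% lower over all genes in the same test. Adamts2, which removes the amino-terminal propeptide of fibrillar procollagens, had 3.21 and 2.57 on day 5 and -0.29 and -0.36 on day 3. Serpinh1, the collagen chaperone Hsp47, had 2.38 and 2.38 on day 5 and -0.28 and -0.60 on day 3. Fkbp10 had means of 2.32 on day 5 and -0.11 on day 3, and Pcolce, an enhancer of propeptide cleavage, had 2.11 on day 5 and 0.26 on day 3. The prolyl hydroxylase subunits P4ha1 and P4ha2 passed as higher with day 5 means of 0.28 and 0.51, and P4hb, at -0.23, did not pass. The lysyl hydroxylases Plod1, Plod2 and Plod3 had day 5 means of -0.0051, 0.29 and -0.12 and did not pass. The list's median on day 5 was 0.34 over 20 genes measured.

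Among matrix proteases and their inhibitors, 5 of 8 tested were higher and 1 was lower on day 5 than on day 3 past the test, against 15.5% and 12.3% of all genes. Timp1, an inhibitor of matrix metalloproteinases, had log2 ratios of 0.52 and 0.68 on day 3 and 3.39 and 3.16 on day 5, and Timp2 and Timp3 had day 5 means of 1.71 and 1.47. The proteases Mmp7 and Mmp14 also passed as higher, with means of 0.69 and -0.01 on day 5 and -0.82 and -0.67 on day 3. Mmp15 passed as lower, with -0.22 on day 5 and 1.01 on day 3. Of elastic fibre and other matrix genes 9 of 21 were higher and 2 lower on day 5 than on day 3, against the same shares of all genes, among them Efemp1, Fbln2 and Ecm1 with day 5 means of 2.31, 1.62 and 1.74, where the Efemp1 value rests on 1 array. Of laminins and other basement membrane genes 4 of 11 were higher and 1 lower, against 15.5% and 12.3% of all genes, with Nid1 at 1.80 and Lama3 at -0.23 on day 5.

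In the list of cell-surface receptors for collagen and fibronectin 2 of 13 genes tested were higher and 3 lower on day 5 than on day 3, against 15.5% and 12.3% of all genes, with a day 5 median of -0.07. Ddr2, a collagen receptor of mesenchyme, was at 1.18 and 0.84 on day 5, whereas Itgb1 and Itga1, a pair that forms a collagen-binding integrin, were at -0.0013 and -0.17. In the TGF-beta pathway, a main inducer of collagen genes, 1 of 13 was higher and 4 lower, against the same shares of all genes, with a day 5 median of -0.01. Tgfb3 had log2 ratios of 1.28 and 1.27 on day 3 and 0.61 and 0.59 on day 5, and Ccn2, which responds to TGF-beta, had a day 5 mean of 0.20.

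Markers of other cell types were read beside these values. Of 20 genes listed for fibroblast surface and factors, 7 were measured on day 5, and S100a4, Cd34 and Pdgfra had means of 3.58, 3.09 and 1.54, while Islr, Thy1, Bmp4 and Prrx1 lay between -0.20 and 0.16. The list's summed intensity was 7289 to 8689 in deleted RNA and 3432 to 3613 in control RNA on day 5. All 5 mesothelial markers were measured, and 4 were at least 1.5-fold higher on both day 5 arrays, against 2.68% of all genes measured. Msln, mesothelin of the serosal lining, had log2 ratios of 0.06 and -0.21 on day 3, followed by 2.95 and 2.78 on day 5. The list's summed intensity was 3754 to 4225 in deleted RNA and 1281 to 1342 in control RNA on day 5, and 1480 to 1514 in deleted RNA and 1538 to 1666 in control RNA on day 3.

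Smooth muscle, endothelial, T cell, glial and epithelial markers had 0 genes called on day 5, against 2.68% higher and 1.98% lower over all genes measured. Of the 10 smooth muscle and pericyte markers measured 0 were called, with a median of 0.13 and a range of -0.11 to 0.65, and their summed intensity was 31541 to 36434 in deleted RNA and 27721 to 29034 in control RNA. Of 6 endothelial markers measured 0 were called, with a median of 0.02 and a range of -0.12 to 0.18. Medians were -0.04 over 12 T cell markers, -0.04 over 5 glial and neuronal markers and 0.10 over 14 epithelial markers. In the myeloid list 2 of 13 were higher, against 2.68% of all genes measured. These were Cd14 and Adgre1, with means of 0.92 and 0.91, and the list's median was 0.12. On day 3 the T cell list had a median of 1.02 and 7 of 12 markers at least 1.5-fold higher in deleted RNA, against 5.35% of all genes measured. What part any of these cell types had in the members' ratios was not tested.

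**Figure D5:**
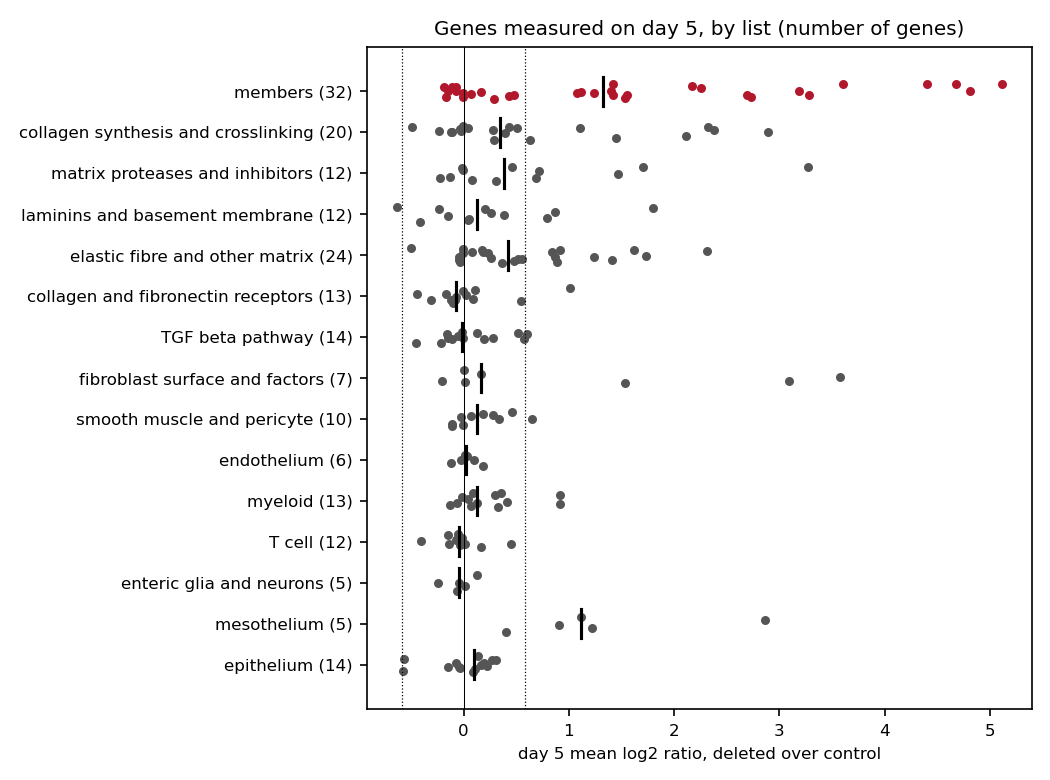
Mean day 5 log2 ratio of deleted over control for each gene measured, by list, with a black bar at the median and dotted lines at 1.5-fold. The members and the mesothelial markers have medians of 1.32 and 1.11, and the endothelial, T cell and epithelial lists lie near 0.

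The genes whose ratios over the 4 deletion arrays lay closest to the mean of Col3a1, Col1a1 and Col1a2 were found by Euclidean distance among 15859 genes. After the 3 collagens themselves came Dcn at a distance of 1.09, the complement gene C3 at 1.58, the protease inhibitor Slpi at 1.73, the cryptdin-related Defcr-rs10 at 1.79, the acute-phase gene Saa3 at 1.93, the galactosyltransferase gene B3galt5 at 2.09 and Defcr-rs2 at 2.14. Each of these had day 5 means of 3.44 or more. On day 3 they lay apart, with C3 at -0.0013, Saa3 at 0.39 and Defcr-rs10 at -1.98.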

How the data were processed

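Per the labels' protocols, Trizol extracts were amplified linearly before labelling. Feature Extraction 9.5.3.1 (protocol GE2-v5_95_Feb07, build mm8) gave, per the file headers, linear intensity values per spot and a log10 ratio of the channels. The authors' deposited series matrix holds log2 ratios, whose centring and left-out spots are not given in the sources used here.

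Background was corrected with normexp (offset 50), arrays were normalised within by loess with control spots at weight 0, and ratios were turned by the labelled dyes. Intensities per RNA are after loess and Aquantile and can carry dye bias. The brightest probe stood for a gene. Dye-swapped arrays were averaged, and the 4 RNA pairs were fitted with limma 3.58.1 under R 4.3.3 (lmFit, then eBayes), two-sided, Benjamini-Hochberg adjusted. A probe counted as above background by the scanner's mark on at least a share of 0.5 of its spots, and a gene was tested if its probe passed on every array of 1 of the 2 RNAs. The fits were tested on simulated data.

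The members, gene lists and tests were chosen with earlier results of these data known. Genes were named by rule: the 3 collagens first, then the largest ratios with 1 sign on all 4 arrays, up to 8 day differences per direction, and up to 3 genes of each list by mean ratio. Other genes named, among them the receptors, a TGF-beta responder, proteases and fibroblast markers, were chosen after their values were seen. Symbols and gene order come from RefSeq (GRCm38.p6).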

Additional observations from a re-analysis of the deposited data

Results flagged for a closer look

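The 16 members whose deleted-over-control ratio differed between day 5 and day 3 by the limma test of that difference are given with the difference in log2 ratio. The fibril-forming collagens differed by 6.19 (Col3a1), 5.73 (Col1a1), 5.42 (Col1a2), 2.96 (Col5a1) and 2.45 (Col5a3). The glycoproteins differed by 3.75 (Sparc), 3.66 (Ccdc80), 3.21 (Fstl1), 2.91 (Mgp) and 1.58 (Fn1), and the proteoglycans by 4.72 (Dcn) and 1.37 (Lum). The other collagens differed by 1.51 (Col6a3), 1.41 (Col16a1), 1.39 (Col18a1) and 1.32 (Col6a1). All 16 had the higher ratio on day 5. With 2 RNA pairs per comparison, no sample could be compared with its group for standing apart.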

How the results depend on the processing

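Each day of the deletion has 1 RNA pair, and a slide holds 1 RNA pair, so slide and pair cannot be told apart and the fit with the slide as a block was not run. No paired analysis was possible because the groups share fewer than 2 replicate numbers. Leaving out a sort leaves no residual degrees of freedom for the day difference, which was then not tested. Signal over background limits the members in the sorts, where 7 of 51 were tested.

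The 19 members higher and 0 lower on day 5 stayed within 1.5 times those counts under every alternative run. On day 3 the count of members higher was 0 in place of 1 at 2-fold, without background subtraction and on the authors' deposited values (where the mean of Fn1 was 1.75), and the count lower was 0 in place of 3 at 2-fold and 6 on the scanner's processed ratio. For the day difference, the count of members higher was 0 with the processed ratio and with median centring, 1 of 3 testable on the authors' values, 10 of 20 where both RNAs had to be above background, and 3 of 7 among genes also above background in the sorts, an alternative added after seeing the data; 1 member, Col2a1, was lower with all probes averaged. Over all genes the 4419 passing became 0, 0, 749 and 2442 with the processed ratio, median centring, the authors' values and the genes also above background in the sorts. The cause was not tested.

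In the sorts, the count of genes passing was 29 on the authors' values, 75 with the sorts fitted alone, 37 when all 8 arrays were fitted with a random block per RNA pair, and 0 to 125 when 1 RNA pair was left out; 0 members passed in any. The members' median of -0.0070 became 0.057 on the processed ratio, 0.23 on the authors' values (3 members), 0.0069 with median centring and 0.025 where both RNAs had to be above background. Col1a2, at -0.06, was 0.057 on the processed ratio, and -0.12 to 0.0045 when 1 RNA pair was left out, the highest without sort 1.

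For the deletion, 253 genes and 0 members passed with that random block. Leaving out 1 RNA pair gave 0 to 6100 genes, 0 to 17 members higher and 0 to 5 lower. The 17 arose without day 3, and 1 higher (Fn1) and 5 lower (Col3a1, Col1a1, Col1a2, Dcn and Sparc) without day 5. The members' median of 0.72 became 1.42 without day 3 and -0.050 without day 5. Mean ratios ranged from -1.07 without day 5 to 5.11 without day 3 for Col3a1, and over the same omissions from -0.92 to 4.81 for Col1a1, -0.74 to 4.68 for Col1a2, -0.31 to 4.41 for Dcn, -0.47 to 3.28 for Sparc, -0.48 to 2.73 for Fstl1, -0.26 to 2.69 for Col5a1 and -0.049 to 3.61 for Ccdc80. These fits assume that the lone day varies like the sorts.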
